A study of Homo sapiens with 12 samples.

Results

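Ribosomal protein genes were examined in PC3E and GS689.Li, human prostate cancer lines that were both derived from PC3. GS689.Li is written GS689 below. The genes were chosen by name: every protein-coding gene whose symbol is RPL or RPS followed by a number, with an optional letter and an optional final L, and without the RPS6K kinases. The annotation used, GENCODE release 29, holds 78 such genes among 19969 protein-coding genes, 47 of the large subunit and 31 of the small subunit. Among them, 5 are duplicate copies whose symbol ends in L (RPL3L, RPL10L, RPL36AL, RPL39L and RPS27L). The labels give both lines the genotype wild type and the same DMEM/F12 medium with serum and the selection drug G418, and name no further treatment. Per line, 3 libraries were made for RNA-seq and 3 for RASL-seq, which counts chosen splice junctions through pairs of probes that are joined when they anneal side by side on an mRNA. Each line is a single derivative, and nothing in the labels says that its replicates were separate cultures, so the spread behind each p-value may be a technical one.

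Ribosomal proteins are the protein parts of the cytosolic ribosome, the particle that reads mRNA and joins amino acids. The large subunit (RPL) proteins surround the site of peptide bond formation and the exit tunnel, and the small subunit (RPS) proteins surround the mRNA and the decoding site. Their mRNAs are among the most abundant in dividing cells, and most begin with a C followed by a run of pyrimidines, the terminal oligopyrimidine tract through which growth signals control their translation. Several of these genes also make transcripts with an exon that carries an early stop codon, which nonsense-mediated decay can remove.

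Both deposited tables count reads that include or skip an exon, so a gene was measured only where it had such an exon event. The RNA-seq table held 426 events of 72 of the 78 genes, of 114816 events in all, with a median of 5 events per gene and a maximum of 20. No event was matched for the other 6, among them the gene copies RPL3L, RPL10L and RPL36AL. The RASL-seq table held 2 events, in RPS18 and RPS24, of 2023. RASL-seq totals ran from 615758 to 954120 counts per library, and the RNA-seq table summed to between 93842790 and 120853566 counts per library, in which a read can count in several events. The RNA-seq columns form 2 numbered sets of 3 libraries, and the lines behind the sets are not named. RNA-seq values are therefore described by set, with no test and no line assigned, and the lines are compared by RASL-seq alone. In RNA-seq, library 2 of set 1 stood apart, with a median difference in exon inclusion of 5.20 and 4.65 percentage points from libraries 1 and 3 of its set, against 3.67 between those 2 and 3.59 to 3.82 within set 2.

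RPS24, a small subunit protein gene mutated in some families with Diamond-Blackfan anaemia, had the alternative exons on which most of the splicing results turn, so their sequences are shown first. They are given 5′ to 3′ on the plus strand of chromosome 10, from GENCODE transcripts on GRCh38, and capitals mark the annotated stop codon. The 25 nt exon is the 22 nt exon with an earlier start, and the 245 nt exon is printed only as far as its stop.
RPS24 22 nt exon (chr10:78040204-78040225): TGAgctggagattggatcacag
RPS24 25 nt exon (chr10:78040201-78040225): cagTGAgctggagattggatcacag
RPS24 18 nt exon (chr10:78037965-78037982): aaaTGAagtgtctagcag
RPS24 245 nt exon (chr10:78048981-78049225): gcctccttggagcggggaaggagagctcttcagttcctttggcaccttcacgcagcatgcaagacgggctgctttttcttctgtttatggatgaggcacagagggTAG
In the 22 nt exon the stop codon is the first codon, so a transcript that joins it to the preceding coding exon adds 0 coding bases. In an annotated transcript that skips it, the next exon is the 102 nt last exon and 9 coding bases precede the stop. By this annotation, inclusion of the 22 nt exon changes the last residues of the protein. The 245 nt exon is annotated only in a transcript of the nonsense-mediated decay class.

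The 22 nt exon of RPS24 (hg19 chromosome 10, 79799962 to 79799983) was the most deeply counted alternative exon among the ribosomal protein genes. Its length-corrected inclusion was 8.91%, 21.6% and 10.1% in libraries 1 to 3 of set 1 and 25.2%, 30.1% and 22.8% in those of set 2. The sets did not overlap, but library 2 of set 1 came within 1.19 points of the lowest set 2 library. Without that library the set 1 values were 8.91% and 10.1%. Exact 95% binomial intervals, which cover counting error only, were 21.4% to 21.8% for library 2 of set 1 and 22.4% to 23.1% for library 3 of set 2. The values rested on 8322, 26769 and 8854 inclusion counts against 70463, 80493 and 65036 skipping counts in set 1, and on 13958, 16194 and 14932 against 34269, 31108 and 41899 in set 2. Counting only the junction into the exon gave 10.5%, 24.8% and 11.8% in set 1 and 28.8%, 34.1% and 26.1% in set 2. That junction held nearly all inclusion counts, and the skipping counts were the same, so the same order is no independent check. The longer 25 nt form of this exon was included in at most 0.274% and the 18 nt exon in at most 0.332% of the counted transcripts in every library.

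The other alternative exon whose sets did not overlap was in RPL37A, a large subunit gene with a zinc-binding protein. Annotated transcripts that run past its usual end into distal exons can take up a 59 nt or a 61 nt exon, and the latter carries a stop codon (capitals). They lie on the plus strand of chromosome 2, on GRCh38.
RPL37A 59 nt exon (chr2:216519332-216519390): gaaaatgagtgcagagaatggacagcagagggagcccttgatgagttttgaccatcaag
RPL37A 61 nt exon (chr2:216520714-216520774): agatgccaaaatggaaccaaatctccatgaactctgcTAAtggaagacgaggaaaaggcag
The 61 nt exon was included in 39.8%, 27.0% and 40.4% of these transcripts in set 1 and in 26.2%, 21.2% and 26.6% in set 2. The lowest set 1 library lay 0.362 points above the highest set 2 library, while its 95% interval ran from 23.5% to 30.7%, so this separation was within counting error. That was library 2, and without it, a choice made after the values were seen, the gap was 13.2 points. The 95% intervals overlapped even then, with 31.2% to 49.0% for library 1 of set 1 and 19.4% to 35.0% for library 3 of set 2. The inclusion values rested on 61, 190 and 95 inclusion counts in set 1 and on 26, 30 and 41 in set 2. The 59 nt exon had 1 to 24 inclusion counts per library and inclusion between 0.887% and 15.7%, with overlapping sets. These distal transcripts were a small part of the output of RPL37A, whose summed counts averaged 77510 per library.

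Only 6 of 394 events with at least 20 counts in every library had a median inclusion between 5% and 95%. Besides the RPS24 22 nt and the RPL37A 61 nt exon, they were the RPS24 245 nt exon, an RPL17 exon counted in 2 events and a 94 nt RPS3 exon. The RPS24 245 nt exon (hg19 chromosome 10, 79808739 to 79808983) was included in 54.7%, 52.2% and 49.5% in set 1 and 46.3%, 57.7% and 56.9% in set 2, with overlapping sets. Its skipping junction leads to a rare distal end at 79814289, with 11 to 27 counts per library, so this percentage is not a share of all RPS24 mRNA. The 98 nt RPL17 exon lies in the part of the mRNA before the start codon (hg19 chromosome 18, 47018106 to 47018203). It was included in 11.6%, 27.6% and 12.7% in set 1 and 9.59%, 12.9% and 10.7% in set 2 for the nearer upstream splice site, site A. For site B the values were 8.66%, 12.9% and 9.43% in set 1 and 9.27%, 8.76% and 9.26% in set 2. Library 2 of set 1 was the highest at both sites, and the sets overlapped. Without the length correction the medians over libraries were 21.4% in place of 12.2% for site A and 16.7% in place of 9.27% for site B. RPS3, a small subunit protein at the mRNA entry site, included its 94 nt exon in 82.5%, 71.7% and 73.4% in set 1 and 89.4%, 75.8% and 80.4% in set 2, in a class of transcripts with only 4 to 16 skipping counts per library.

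**Figure D1:**
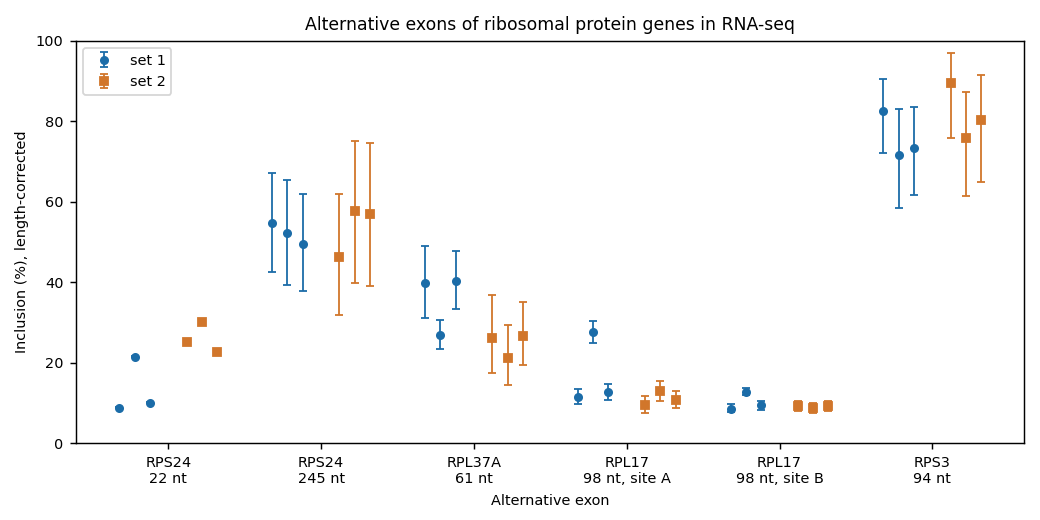
Length-corrected inclusion (%) of the 6 alternative exon events of ribosomal protein genes in RNA-seq, with 1 point per library (circles for set 1, squares for set 2) and exact 95% binomial intervals for counting error. The sets are apart for the RPS24 22 nt exon (8.91% to 21.6% against 22.8% to 30.1%) and narrowly apart for the RPL37A 61 nt exon, and overlap for the other 4 events.

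The remaining exons were close to constitutive. Of the 394 events, 360 (91.4%) had a median inclusion above 95% and 28 (7.11%) below 5%, and the share between 5% and 95% was 1.52%. Over all 90656 events of that depth these shares were 80.4%, 6.14% and 13.4%. The ribosomal protein events were also deeper, with a median of 20481 counts per library against 392 for all events, and the part of depth in these shares was not tested. Large subunit genes had 207 of 223 events above 95% inclusion, and small subunit genes 153 of 171.

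The 28 rarely included exons came from coding and noncoding transcripts, and 12 of them (42.9%) were annotated only in transcripts of the nonsense-mediated decay class. Among all rarely included exons of the table, the share was 30.2%. The most used of these 12 was a 172 nt exon of RPS9, a small subunit protein (hg19 chromosome 19, 54710421 to 54710592). It was included in 2.85%, 2.62% and 2.55% in set 1 and 2.06%, 2.32% and 2.14% in set 2, so all set 2 libraries were below all set 1 libraries, by a gap of 0.230 points. A 121 nt exon of RPS27 followed with 0.358% to 0.706% in the 6 libraries. A 97 nt RPS15A exon, which is annotated in a coding transcript too, had 0.622% to 0.979%. An RPL35A exon of 173 nt was used in 0.0597%, 0.0366% and 0.0185% in set 1 and in 0.139%, 0.111% and 0.127% in set 2, a higher value in every set 2 library. The other rare exons of the decay class (in RPL5, RPL8, RPL26, RPL29, RPL35, RPL36A, RPL37A, RPS2 and RPS14) had at most 0.186% inclusion in any library.

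**Figure D2:**
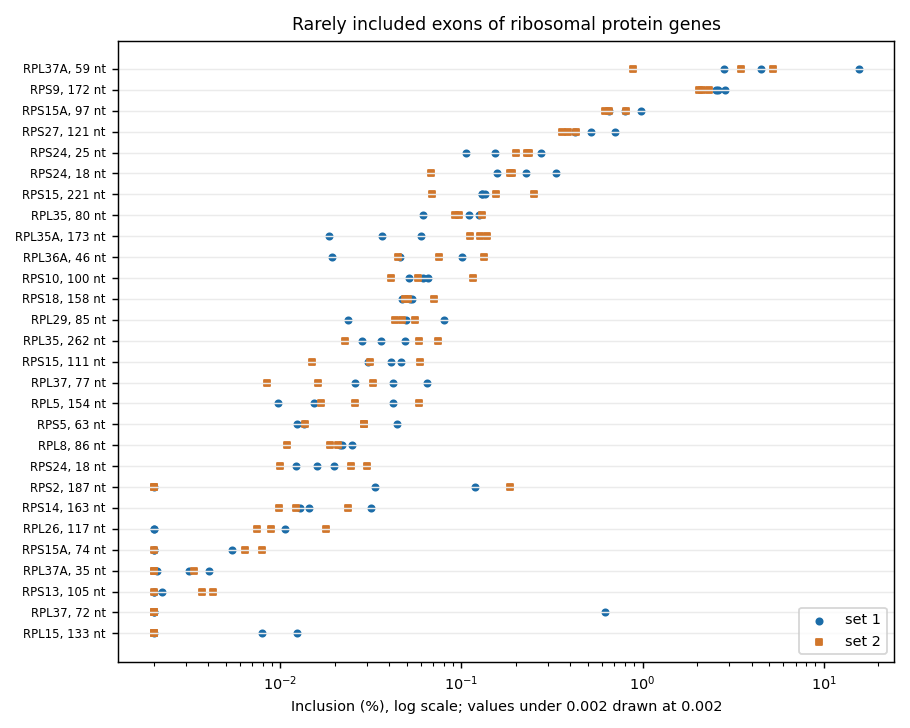
Inclusion (%, log axis) of the 28 rarely included exon events of ribosomal protein genes in RNA-seq, 1 point per library (circles for set 1, squares for set 2); values below the left end of the axis are drawn at that end. The RPL37A 59 nt and RPS9 172 nt exons are the most included, and most others lie below 1% in all libraries.

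Across all deep events of these genes, 39 of 394 had inclusion values that did not overlap between the sets, 15 lower and 24 higher in set 2. That is 9.90%, near the 9.72% found over all events. With the added condition that the set medians differ by at least 5 points, 2 remained (RPS24 22 nt and RPL37A 61 nt), where 2.72% of all events passed. Most of the 39 were exons included in over 99% of transcripts, whose values differed in the decimals.

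The levels of most ribosomal protein genes were lower in set 2. The level of a gene is here the sum of its inclusion and skipping counts over all its events, scaled to counts-per-million (CPM) of the table total of that library, and is compared within a gene. All set 2 libraries were below all set 1 libraries for 61 of 72 genes, against 19.1% of the 10813 genes measured in this way. All set 2 libraries were above set 1 for 1 of the 72, against 29.3% of all genes. The median difference between set medians was -0.60 on the log2 scale, a ratio of 0.661, where the median over all measured genes was 0.11. In 53 of the 72 genes the ratio lay between 0.5 and 0.8. By subunit, 37 of 43 large subunit genes (median -0.60) and 24 of 29 small subunit genes (median -0.53) were lower in all set 2 libraries. Together the genes took 11.4%, 14.2% and 10.99% of all counts of the table in set 1 and 7.26%, 7.17% and 8.89% in set 2. Without RPS24 and RPL8, the highest, the shares were 9.17%, 11.3% and 8.95% in set 1 and 5.94%, 5.94% and 7.37% in set 2. Library 2 was the highest of set 1 and library 3 of set 2, but the sets stayed apart. Leaving out any single library gave 61 to 67 lower genes, and 61 without library 2 of set 1, where 20.3% to 26.4% of all genes were lower. Such a count can only stay or rise when a library is left out, so this is no check on single libraries. With skipping counts alone, 30 of the 72 were lower (median -0.40), against 12.9% of all genes. In bulk RNA, fewer cells of a type and less RNA per cell cannot be told apart. As a share of the table total, a level can also fall where the counts of other genes rise, and this was not tested.

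**Figure D3:**
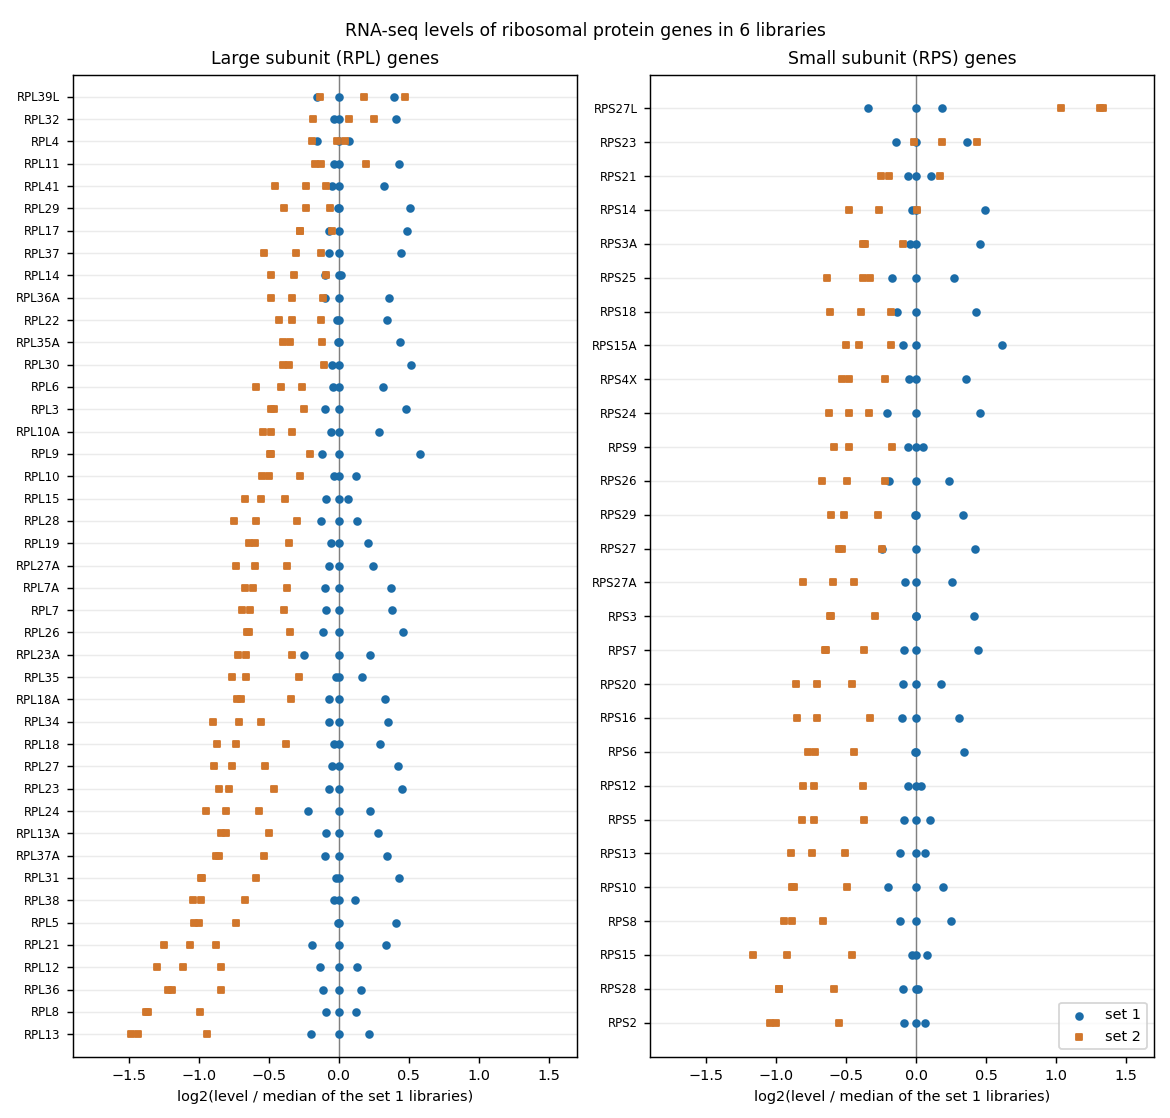
Levels of measured ribosomal protein genes in the 6 RNA-seq libraries, 1 gene per line, as log2 of the level over the median of the set 1 libraries (x axis), with large subunit genes on the left and small subunit genes on the right. Squares (set 2) lie left of all circles (set 1) in most genes drawn, and right of them in RPS27L alone.

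Marker genes of cell character moved with the same split. All 10 epithelial markers had lower levels in set 2 than in any set 1 library, with a summed level of 3294 to 3737 in set 1 and 629 to 816 in set 2. Of 6 mesenchymal markers with an event, 4 were higher in all set 2 libraries (summed level of the 6: 517 to 689 against 1844 to 1856). VIM made up most of the set 2 sum, with 1376, 1276 and 1461 CPM. ZEB1 and TWIST1, also higher, were at most at 2.14 CPM in any library. FN1 had overlapping sets, with 539, 415 and 569 in set 1 and 326, 485 and 248 in set 2, and ZEB2 was near 0. SNAI2 and the luminal markers, such as KLK3, had no event, and of the blood cell markers only PTPRC had one, at 0 to 0.141 CPM. In RASL-seq, where the lines are named, the summed level of LLGL2, LSR, OCLN and SPINT2 was 828 to 1242 CPM in PC3E and 341 to 422 in GS689. VIM and ZEB1 together were at 172 to 210 in PC3E and 4198 to 4314 in GS689, nearly all of it VIM. For the other markers, among them FN1, no RASL-seq level is given here. The part of cell character in the ribosomal protein levels was not tested.

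Among large subunit genes, RPL13 had the lowest set 2 level relative to set 1. Its levels were 1585, 2117 and 1820.5 CPM in set 1 and 650.1, 675 and 946 in set 2, a log2 difference of -1.43. RPL8, which lies at the peptidyl transferase centre, had 9413, 10230.0 and 8825 in set 1 and 3664, 3632 and 4737 in set 2, a difference of -1.36. In both genes the highest set 2 library was far below the lowest set 1 library. RPL36 (-1.19), RPL12 (-1.12) and RPL21 (-1.06) followed. RPL3, which shapes the peptidyl transferase centre, stood nearer the middle, at 1006, 1497 and 1075 in set 1 and 768, 781 and 904 in set 2, a difference of -0.46. RPL5, which with RPL11 binds the smallest ribosomal RNA and the p53 regulator MDM2, had a difference of -1.0, with all set 2 libraries lower. RPL11 itself had 825, 1136 and 843 in set 1 and 771, 748 and 965 in set 2, so its sets overlapped. RPL4, an exit tunnel protein, was at 1965, 2069 and 1769 in set 1 and 1947, 1720.3 and 2023 in set 2 (-0.01), and RPL32 at 0.07 also overlapped.

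Among small subunit genes, RPS24 had the most counts. Its levels were 13334, 18265 and 11520.4 in set 1 and 9536, 8651 and 10539.8 in set 2, a log2 difference of -0.48. RPS2, at the mRNA entry channel, had the largest difference of the group in this direction, -1.01, with 4466, 4022 and 4283 in set 1 and 2133, 2078 and 2915 in set 2. RPS3 had 4124, 5476 and 4126 in set 1 and 2685, 2709 and 3355 in set 2. In these 3 genes, each set 2 library was below each set 1 library. RPS23, a protein of the decoding site, did not share this: its levels were 676, 870 and 611 in set 1 and 768, 669 and 912 in set 2, with overlapping sets. RPS18, the gene that RASL-seq measured best, had 3166, 4695 and 3492 in set 1 and 2275, 2649 and 3076 in set 2.

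The 2 measured duplicate copies were not lower in set 2. RPS27L, a copy of RPS27 that is known as a p53 target, had 14.3, 16.1 and 11.2 CPM in set 1 and 29.1, 35.9 and 35.4 in set 2, a log2 difference of 1.31 and the only gene with all set 2 libraries higher. Its partner RPS27 was at 212, 284 and 179 in set 1 and 145, 147 and 179 in set 2 (-0.53), with the lowest set 1 and the highest set 2 library at the same level. RPL39L, a copy of RPL39 known from the male germ line, had 16.4, 21.5 and 14.7 in set 1 and 18.5, 14.9 and 22.8 in set 2 (0.18), with overlapping sets. RPS27L and RPL39L were also the 2 genes with the fewest counts. They were measured by 1 event each, and near-identical copies and pseudogenes can exchange reads, so the levels of such pairs are uncertain.

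To compare genes with each other, counts were divided by the effective length of each form and the highest event of a gene was used, scaled to a junction of 101 bases and to CPM. On this per-length scale RPS24 was the highest of the 72 genes with a median over libraries of 1198, ahead of RPL8 with 681 and RPL30 with 383, and RPL37 with 365 was also among the 5 highest. The median gene was at 173. RPL39L (10.9), RPS27L (11.3) and RPL34 (26.9) were the lowest, followed by RPS3A with 74.4 and RPL26 with 83.3. By summed counts RPL13A and RPS3 were with RPS24 and RPL8 among the 5 highest, and RPL34, RPS27 and RPL38 joined the 2 duplicates as the 5 lowest. RPL13A had 5340.4, 6492 and 5019.8 in set 1 and 2988, 3050.1 and 3787 in set 2. RPL34 had 54.0, 72.3 and 56.7 in set 1 and 30.5, 34.6 and 38.6 in set 2. RPL38 had 251, 279 and 257 in set 1 and 125, 129.9 and 162 in set 2. In these 3 genes too the sets did not overlap, with set 2 lower.

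The start of the transcript is a feature that the choice of genes did not use. RefSeq promoter entries on GRCh38.p14 matched 61 of the 78 genes, with 76 start positions. At 42 of these starts (55.3%) the first base was C and the next 4 were C or T, against 4.07% of the 35116 promoters in the table. The share was similar in large (51.0%) and small subunit genes (63.0%). The motif CCGGAAG, a sequence that ETS family factors bind, occurred on either strand within 300 bases at 26 of the 76 starts (34.2%), against 10.3% of all promoters of that length. Windows of 30 bases around the start, 15 of them before it, are shown for 9 genes with 1 start, chosen after their levels were seen to show starts with and without the tract. The capitals mark the first base and the next 4.
RPS24 (chr10:78033848-78033877, plus strand): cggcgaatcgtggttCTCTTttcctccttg
RPS18 (chr6:33272060-33272089, plus strand): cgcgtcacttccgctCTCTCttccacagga
RPL21 (chr13:27251543-27251572, plus strand): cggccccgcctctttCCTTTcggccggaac
RPL12 (chr9:127451392-127451421, minus strand): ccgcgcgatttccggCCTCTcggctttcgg
RPL36 (chr19:5690280-5690309, plus strand): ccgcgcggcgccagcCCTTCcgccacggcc
RPS23 (chr5:82278340-82278369, minus strand): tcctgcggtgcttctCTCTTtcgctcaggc
RPL3 (chr22:39319609-39319638, minus strand): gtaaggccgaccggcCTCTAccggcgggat
RPL4 (chr15:66504841-66504870, minus strand): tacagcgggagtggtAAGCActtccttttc
RPS27L (chr15:63157463-63157492, minus strand): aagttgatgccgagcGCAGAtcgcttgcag
RPS24, RPS18, RPL21, RPL12 and RPL36, which were lower in set 2, begin with such a tract at the listed start, and so does RPS23, whose sets overlapped. RPL3 ends its tract after 4 bases, and RPL4 and RPS27L start with another base at the listed position. Over all measured genes with 1 listed start, 30 of 35 with the tract and 10 of 13 without it were lower in all set 2 libraries, with median log2 differences of -0.61 and -0.49. These matches describe the letters at the listed start, which may differ from the start used in these cells.

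The comparison of the lines by RASL-seq asked how splicing differs between a more epithelial and a more mesenchymal PC3 derivative, and measured RPS18 and RPS24. Both were tested for the total of both forms with limma-voom and for exon inclusion with a quasi-binomial model whose dispersion limma moderated, each over the whole table with Benjamini-Hochberg adjustment. RPS18, in the head of the small subunit and often used as a reference gene, was lower in GS689. The exon measured is a 158 nt exon of a processed transcript (hg19 chromosome 6, 33243277 to 33243434). The junction that skips it, which holds nearly all counts, is shown as 20 bases from each side, from GENCODE on GRCh38, where the exon lies at chr6:33275500-33275657 on the plus strand. The capitals mark the downstream exon.
RPS18 skipping junction: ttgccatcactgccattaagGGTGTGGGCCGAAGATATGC
The totals were 8756, 10997 and 9680 counts in PC3E and 7588, 6536 and 6205 in GS689. Scaled by trimmed means, they were 10342, 14279 and 10857 CPM in PC3E (11826 ± 2140, SD, n = 3) and 7791, 7908 and 10054 in GS689 (8585 ± 1274, n = 3). The lines did not overlap, but GS689 replicate 3 came close to PC3E replicate 1, and 46.4% of all gene totals did not overlap either. RPS18 was 1.38-fold lower in GS689 (log2 -0.46, SE 0.148, limma-voom adjusted p = 0.0381). Of 1317 gene totals tested, 29.8% were called, 13.4% as lower in GS689, so 1 called gene of 2 is no result about the group. The RPS18 total ranked 15th of 1520 named genes and unnamed events in counts. The call was lost when PC3E replicate 2 (limma-voom adjusted p = 0.0528), PC3E replicate 3 (0.0531), GS689 replicate 1 (0.145) or GS689 replicate 2 (0.122) was left out, with log2 values from -0.54 to -0.34.

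The 158 nt exon was hardly used. RASL-seq counted 5, 4 and 5 inclusion junctions in PC3E and 7, 3 and 18 in GS689, an inclusion of 0.0484% ± 0.0107 and 0.143% ± 0.130 (SD, n = 3 each). How many of these few counts come from RPS18 transcripts was not tested. The GS689 mean was set by replicate 3, at 0.290%, while replicates 1 and 2 at 0.0923% and 0.0459% were near the PC3E values of 0.0364% to 0.0571%. The difference did not pass the test (0.0944 points, adjusted p = 0.379 in the limma-moderated model), in which 5.69% of 1124 events were called. In RNA-seq the same exon was included in 0.0469%, 0.0531% and 0.0521% in set 1 and 0.0508%, 0.0705% and 0.0486% in set 2.

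RPS24 was measured at the 245 nt exon of the decay class transcript, whose junctions are as follows, with capitals for the side that differs (exon at chr10:78048981-78049225, GRCh38).
RPS24 inclusion junction: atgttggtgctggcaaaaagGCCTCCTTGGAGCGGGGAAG
RPS24 skipping junction: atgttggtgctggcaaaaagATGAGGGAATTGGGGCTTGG
The inclusion counts were 12, 16 and 8 in PC3E and 5, 17 and 5 in GS689, and the skipping counts 44, 26 and 26 in PC3E and 21, 17 and 14 in GS689. Inclusion was 21.4%, 38.1% and 23.5% in PC3E (27.7% ± 9.08, SD, n = 3) and 19.2%, 50% and 26.3% in GS689 (31.8% ± 16.1, n = 3). Replicate 2 was the highest in both lines and the lines overlapped. The difference of 4.16 points was smaller than the spread between replicates (adjusted p = 0.789 in the limma-moderated model) and changed sign to -4.91 without GS689 replicate 2. The totals of 56, 42 and 34 counts in PC3E and 26, 34 and 19 in GS689 leave exact 95% intervals such as 32.4% to 67.6% for GS689 replicate 2, so a moderate difference was not detectable at this depth. As both forms join rare distal exons, these totals do not measure RPS24 mRNA as a whole. They differed by a log2 value of -0.66 (SE 0.309, limma-voom adjusted p = 0.130), which did not pass the test. In RNA-seq the median inclusion of the 245 nt exon over libraries was higher, 53.4% with length correction and 69.7% without it. The reason for this difference between the assays was not tested.

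**Figure D4:**
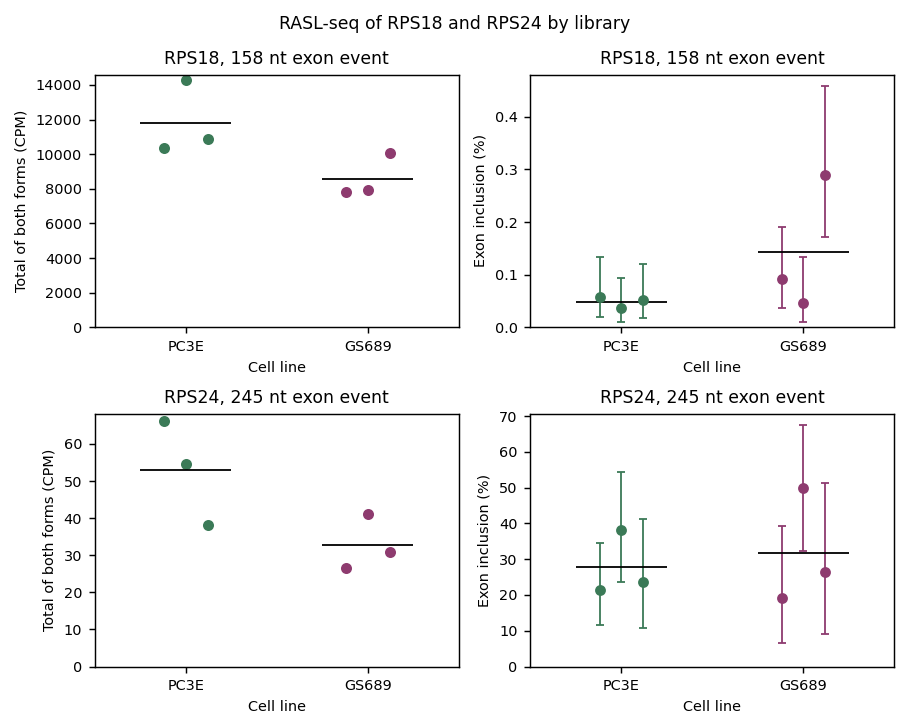
RASL-seq values of the RPS18 (top) and RPS24 (bottom) events in each library of PC3E and GS689: total of both forms in CPM (left) and exon inclusion in percent with exact 95% binomial intervals for counting error (right). Lines mark the mean of 3 libraries; RPS18 totals are 10342 to 14279 in PC3E and 7791 to 10054 in GS689, while the inclusion values of both genes overlap between the lines.

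Other genes of the protein synthesis pathway were counted in the same way in RNA-seq. Over all 10813 measured genes, 19.1% were lower in all set 2 libraries and 29.3% higher. The cytosolic ribosomal proteins with other names (such as RPLP0, RPLP1, RPLP2, RPSA, FAU and RACK1) were lower in all set 2 libraries in 4 of 7 and higher in 0, with a median log2 difference of -0.44. RPLP0, a stalk protein, was at 8150, 8899 and 8528 in set 1 and 7683, 8228 and 10078 in set 2, with overlapping sets, whereas RACK1, a scaffold on the small subunit, was lower in set 2 (-0.44). Of 66 mitochondrial ribosomal protein genes, 43 were lower and 3 higher (median -0.38). Of 46 translation factors, 18 were lower and 8 higher (median -0.20). Examples are PABPC1, which binds poly(A) tails, at -0.46, EEF1A1, which carries aminoacyl-tRNA to the ribosome, at -0.33, and EIF4G2, an initiation factor, which was higher at 0.35. Of 58 ribosome biogenesis factors, 17 were lower and 5 higher (median -0.26), and the nucleolar proteins NPM1 (0.02) and NCL (0.08) overlapped between the sets. Of 15 nonsense-mediated decay factors, 3 were lower, among them the helicase UPF1 at -0.59, and 4 higher (median 0.03). The median of all 10813 measured genes, 0.11, lies above each of these medians. With the largest single event per gene or the highest reads per junction, the decay factors had a median of 0.15 and all genes 0.13.

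**Figure D5:**
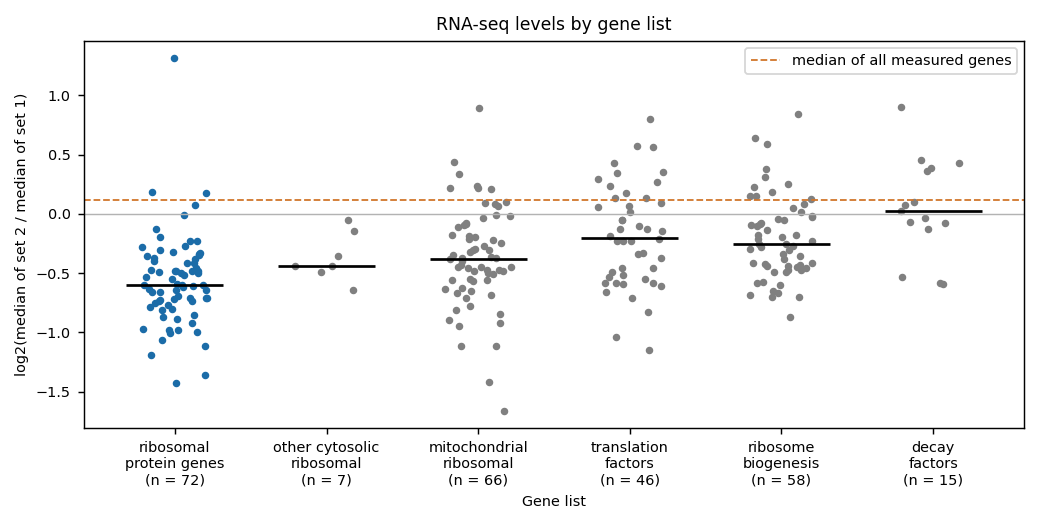
Log2 of the set 2 over the set 1 median level in RNA-seq for each gene of 6 lists, with the list median as a bar and the median of all 10813 measured genes (0.11) as a dashed line. The ribosomal protein genes have the lowest list median (-0.60), with RPS27L (1.31) far above the others.

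In RASL-seq few genes of these lists were measured. Of all 1317 gene totals tested, 29.8% were called, 13.4% as lower in GS689, so the calls below are no result about the lists. EIF4H, which assists the helicase of translation initiation, was 1.64-fold lower in GS689 (log2 -0.72, SE 0.124, limma-voom adjusted p = 0.00147) and was the only 1 of 7 translation factors called. UTP14A, a factor of small subunit assembly, was 1.41-fold lower (log2 -0.49, SE 0.143, limma-voom adjusted p = 0.0242) and was the only biogenesis factor tested. The totals of 3 mitochondrial ribosomal protein genes and of 3 decay factors (among them CASC3 and UPF3A) did not pass in limma-voom. The lowest adjusted p among them were 0.0525 for MRPS11 and 0.0565 for UPF3A in limma-voom. In exon inclusion 1 event of these lists passed, in MRPL22, a mitochondrial large subunit protein, with 94.4% in PC3E and 87.9% in GS689 (adjusted p = 0.0468 in the limma-moderated model). Of all 1124 events tested, 5.69% were called. The 7 events of translation factors and 5 of decay factors did not pass.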

How the data were processed

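Build hg19 and the tools kallisto 0.43.0 and STAR 2.5.2a are named per the submitters' processing notes, and their role is not given in the sources used here. The authors deposited raw counts of inclusion and skipping reads per exon event for both assays, and for RNA-seq effective lengths of 101 bases for skipping and 102 to 202 for inclusion, per the file headers. The RASL-seq columns name each library.

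Events were given a gene where strand, exon length and both intron lengths matched 1 gene of GENCODE release 29 on GRCh38. This held for 1934 of 2023 RASL-seq and 109246 of 114816 RNA-seq events. In addition, 2 RNA-seq events that a ribosomal protein gene shares with a readthrough gene were given to the ribosomal protein gene. Positions called hg19 are those of the files, counted from 1. In RASL-seq, empty cells were read as 0, and inclusion was counted at the junction upstream of the exon. RNA-seq inclusion was computed from counts divided by effective length.

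RASL-seq inclusion was tested with a quasi-binomial model per event, with dispersions moderated by limma 3.58.1 in R 4.3.3 and held at 1 or above. Events needed a mean of 10 counts per library, 1 in each library and 10 of the rarer form. A call is an adjusted p under 0.05 and at least 5 points. Gene totals were tested with limma-voom scaled by trimmed means. Both were tested on simulated data.

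Named in full were genes with a RASL-seq event, genes with an RNA-seq event of 5% to 95% median inclusion or with sets apart by 5 points, and the 5 highest and 5 lowest by summed counts. Others named in the text were chosen after their values were seen. Members and lists were chosen with earlier results of these data known. Alternatives were other tests, pseudocounts, filters and scalings, single events per gene, and leaving out each library. Some items are not reported here.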

Additional observations from a re-analysis of the deposited data

How the results depend on the processing

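In RASL-seq no ribosomal protein event was called under the alternatives run, 11 for RPS18 and 10 for RPS24, which a mean of at least 50 counts left out. The RPS18 exon, at most at 0.290% in any library, could not reach the 5 points that a call needs. Its lowest adjusted p was 0.221, with limma on the log2 ratio at a pseudocount of 5. Among gene totals, RPS18 was the 1 called in 8 of 12. Leaving out a library gave 0 to 1 called totals among these genes, 44 to 81 called events and 251 to 441 called totals over the whole table. With limma on the log2 ratio of counts at a pseudocount of 0.5, 25 events were called in place of 64, and 47 at a pseudocount of 5. With skipping counts alone, 242 gene totals were called in place of 393. The RPS24 inclusion difference ran from -4.91 points without GS689 replicate 2, a reversal, to 10.5 points without GS689 replicate 1.

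Same-numbered RASL-seq replicates of the lines correlated at 0.39, 0.30 and -0.07 in their deviations. PC3E replicate 1 with GS689 replicate 2 gave -0.38, and PC3E replicate 2 with GS689 replicate 1 gave -0.35. The remaining pairs lay between -0.03 and 0.09. Whether the numbers pair the libraries is therefore not settled, and the main models left them unpaired. With a replicate block, 88 events and 465 gene totals were called, with 0 ribosomal protein events and 1 total among them. The RPS18 total then had a log2 difference of -0.46 with a limma-voom adjusted p of 0.0105, in a range of 0.0105 to 0.145 over its alternatives, and changed no other call among these genes.

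In RNA-seq, 61 genes were lower in all set 2 libraries. The count was 61 with trimmed-mean factors, 59 with the largest single event per gene or the highest reads per junction, and 30 with skipping counts alone. Leaving out a library gave 61 to 67, but this can only keep or raise the count and is no check of it. The lower share of all genes was 12.9% with skipping counts alone and 18.5% to 26.4% under the others. The cause of the lower counts with skipping counts alone was not tested. The 2 added after seeing the data were the highest reads per junction (59) and leaving out each library (61 to 67). With a minimum gap of 1 point, 3 events had sets apart in place of 39, and 0 with gaps of 5 or 10 points. Leaving out a library, which can only keep or raise this count too, gave 54 to 81 events (13.7% to 20.6%), against 15.7% to 17.7% of all events. Events of 5% to 95% inclusion numbered 5 to 9 in place of 6. Without length correction the medians over libraries of all 6 rose. The RPS24 245 nt exon went from 53.4% to 69.7%, above its highest library. The RPL37A 61 nt exon went from 26.8% to 36.8%, inside the range of its libraries. The RPS24 22 nt exon moved less, from 22.2% to 25.6%. The main limits are the unnamed RNA-seq sets, reads that count in several events, and the few counts of both RASL-seq events' rarer forms.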
